A study of Mus musculus musculus x Mus musculus castaneus with 8 samples.

Results

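Neat1 and Malat1 are long noncoding RNAs that stay in the nucleus, and they were followed by name, as 2 genes of the 24421 genes counted, across the 4 groups of the study. Both passed the filter on low counts, as 2 of the 12643 genes tested. Both are listed as ncRNA on the minus strand of chromosome 19, with lengths of 20768 bases for Neat1 and 6981 bases for Malat1. RNA was taken from fibroblasts of the tail of a female F1 mouse with Mus musculus and Mus castaneus as parents, and the parental alleles (called mus and cas here) can be told apart by sequence variants. The groups were cells given 5azadC (the cytidine analogue 5-aza-2'-deoxycytidine, which blocks DNA methyltransferases), cells given VX680 (an inhibitor of the mitotic Aurora kinases), cells given both drugs (5azadC+VX680), and untreated cells, which received the solvent DMSO and are called WT in the sample titles. Each group had 2 libraries. Cells grew for 72 h, and drugs were added 24 h after plating. The series title places the study in the reactivation of the silent X chromosome. Drug doses, and whether replicates were separate cultures, are not given in the sources used here, so the p-values reflect how far these libraries spread, which may be technical.

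Neat1 is the architectural RNA of paraspeckles, nuclear bodies that form on its long form together with RNA-binding proteins such as Sfpq and Nono. A short, polyadenylated form of Neat1 shares its start with the long one and does not build paraspeckles by itself. Malat1, made from the neighbouring gene, gathers in nuclear speckles, which hold splicing factors, and is among the most abundant nuclear RNAs of mammalian cells. Malat1 and the long form of Neat1 carry no poly(A) tail: RNase P cuts a tRNA-like structure off each transcript, and a triple helix of U-rich motifs and an A-rich tract protects the new end. The 3′ ends are shown because this processing is the feature the RNAs share and because the choice of end separates the Neat1 forms. In the GENCODE transcripts (GRCm38), the stretch of Neat1-201 at chr19:5824708-5824785 and that of Malat1-201 at chr19:5795982-5796052, both minus strand and exonic, each hold a U-rich motif (TTTGCTTTT) and an A-rich tract (AAAAAGCAAAA, the last 11 bases of Neat1-201), which are in capitals:
Neat1: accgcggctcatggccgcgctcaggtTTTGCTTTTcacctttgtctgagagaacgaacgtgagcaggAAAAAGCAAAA
Malat1: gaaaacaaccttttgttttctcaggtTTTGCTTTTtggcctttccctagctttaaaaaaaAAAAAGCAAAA
The shown motifs lie 32 bases apart in Neat1 and 25 bases apart in Malat1. On the transcribed strand, AAAAAGCAAAA occurred 1 time in each transcript, and TTTGCTTTT occurred 2 times in Neat1 and 1 time in Malat1. The Neat1 transcript of 20771 bases ended with the A-rich tract, while the Malat1 transcript of 6983 bases went on for 292 bases. Neat1-202, the short form, has 3004 bases. The deposited tables give a single row per gene, so the short and long forms of Neat1 could not be separated, and how RNA was selected before library preparation is not given in the sources used here.

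The 8 libraries held between 6908503 and 11169532 counts, and 26.1 to 26.9% of them were assigned to an allele. Replicates spread beyond counting error, with a chi-square per degree of freedom of 19.9 between the 5azadC libraries, 3.02 between VX680, 2.74 between 5azadC+VX680 and 7.50 between untreated libraries. Fibroblast markers were abundant as a sum in every group: the 11 markers, collagens and Dcn among them, summed to 23100 to 26800 CPM (counts scaled to a common library size) with 5azadC, 17800 to 18100 with VX680, 15000 to 15600 with both drugs and 35000 to 39800 in untreated cells. Of these 11 markers, 10 passed the filter on low counts. Markers of 7 other cell types summed to at most 48.2 CPM per library, reached by the skeletal muscle list in 5azadC cells (29.2 to 34.3 with VX680, 29.1 to 31.3 with both drugs and 19.3 to 21.3 in untreated cells). The adipocyte markers summed to 3.34 to 3.43 CPM with 5azadC, 13.2 to 16.2 with VX680, 19.8 to 20.5 with both drugs and 0.586 to 2.08 in untreated cells. In untreated cells, 2 of 4 leukocyte markers (Ptprc and Cd3e) and 1 of 4 melanocyte markers (Tyr) had 0 counts. The other members had counts there, and the lists summed to 15.4 to 18.8 CPM (leukocyte) and 4.62 to 5.71 CPM (melanocyte). The sum of the fibroblast markers was lower in all 3 treated groups, and its part in the changes below was not tested. In bulk RNA, fewer cells that make a transcript and less transcript per cell cannot be told apart.

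Neat1 was lower with 5azadC and higher with VX680, with or without 5azadC. The 5azadC libraries had 399 and 310.5 CPM, the VX680 libraries 1061.5 and 1079.6 CPM, the 5azadC+VX680 libraries 982 and 859.7 CPM, and the untreated libraries 490.1 and 714 CPM. The 4 groups did not overlap, and their order was 5azadC, untreated, 5azadC+VX680 and VX680 from low to high. The step between the last 2 groups was not called (both drugs against VX680, log2 difference -0.22 ± 0.15, edgeR adjusted p = 0.464). How many other genes have groups apart in this way was not counted, here or for the genes below. Means were 355 ± 62.7 CPM with 5azadC, 1071 ± 12.9 CPM with VX680, 921 ± 86.5 CPM with both drugs and 602 ± 158 CPM in untreated cells (SD, n = 2 each). The untreated libraries were 1.46-fold apart, the widest replicate gap of the 4 groups for this gene, against 1.02-fold between the VX680 libraries. Counts behind these levels ran from 2264 to 10811 per library, which gives a counting error of 0.96 to 2.1%, well below the replicate gaps in all groups except VX680.

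Malat1 was lower in every treated group than in untreated cells. The 5azadC libraries had 4214 and 4478 CPM, the VX680 libraries 5573 and 5887 CPM, the 5azadC+VX680 libraries 4453 and 4314 CPM, and the untreated libraries 7782 and 8436 CPM. The 5azadC and 5azadC+VX680 groups overlapped, the VX680 group lay above both, and the untreated group was highest. Means were 4346 ± 187 CPM with 5azadC, 5730 ± 222 CPM with VX680, 4384 ± 98.3 CPM with both drugs and 8109 ± 462 CPM in untreated cells (SD, n = 2 each). Replicates were at most 1.08-fold apart, and the counts of 31261 to 85834 per library gave a counting error of 0.34 to 0.57%. Malat1 ranked between 5 and 10 by CPM among the tested genes and took 0.411 to 0.793% of all counts, while Neat1 ranked between 52 and 502 and took 0.0294 to 0.112%.

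**Figure D1:**
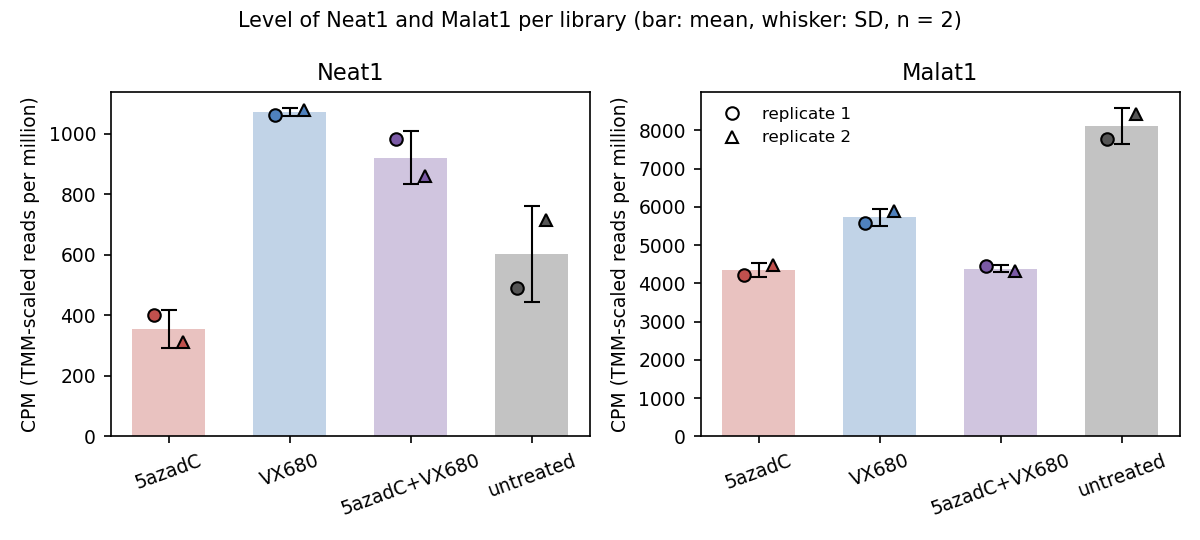
Levels of Neat1 and Malat1 in CPM (y axis, from 0) in the 4 groups (x axis); bars are means, whiskers the SD, and points the 2 libraries of each group. Neat1 lies between 310.5 and 399 CPM with 5azadC and at 859.7 CPM or more in all 4 libraries given VX680, while Malat1 is highest in the untreated libraries at 7782 and 8436 CPM.

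The methylation inhibitor 5azadC, given alone, lowered both RNAs. Neat1 fell to 0.591 of the untreated level, a log2 change of -0.76 ± 0.15 (SE; edgeR quasi-likelihood test, Benjamini-Hochberg adjusted p = 0.00138). Malat1 fell to 0.536 of the untreated level, a log2 change of -0.90 ± 0.09 (adjusted p = 3.09e-06). Of all tested genes, 42.2% were called in this comparison, 22.6% higher and 19.6% lower, and 24.1% of genes changed by more than Neat1 and 18.9% by more than Malat1. Without untreated replicate 2, the log2 change of Neat1 was -0.48 (adjusted p = 0.0209).

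The Aurora kinase inhibitor VX680, given alone, moved the RNAs in opposite directions. Neat1 rose 1.78-fold over untreated cells, by 0.83 ± 0.15 in log2 (adjusted p = 0.00055). Malat1 fell to 0.707 of the untreated level, by -0.50 ± 0.09 in log2 (adjusted p = 0.00032). In this comparison 46.1% of all tested genes were called, 23.8% higher and 22.4% lower. Larger changes than that of Neat1 were seen in 23.5% of genes, and larger changes than that of Malat1 in 43.0%.

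With both drugs, Neat1 was again higher and Malat1 again lower than in untreated cells. Neat1 rose 1.53-fold, by 0.62 ± 0.15 in log2 (adjusted p = 0.0036). Malat1 fell to 0.541 of the untreated level, by -0.89 ± 0.09 in log2 (adjusted p = 1.36e-06). Here 55.7% of all tested genes were called, 28.4% higher and 27.3% lower, so that a call alone was common. The call of Neat1 was lost without untreated replicate 1, the lower of the untreated libraries for this gene (0.35, adjusted p = 0.0627). Without 5azadC+VX680 replicate 1 it stood at 0.51 (adjusted p = 0.0498). These 3 comparisons share the untreated libraries.

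Set against 5azadC alone, the combination asks what VX680 adds to methylation inhibition. Neat1 rose 2.59-fold, by 1.38 ± 0.16 in log2 (edgeR, adjusted p = 3.41e-05), and only 5.57% of genes changed by more in this comparison, in which 24.8% were called and 9.98% were called higher. Malat1 had a log2 difference of 0.01 ± 0.09 (adjusted p = 0.932), with 97.4% of genes further from no change. The sign of this small difference turned without the filter on low counts (-0.0042) and without either of 2 single libraries, with values from -0.04 to 0.06.

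Set against VX680 alone, the combination asks what 5azadC adds to Aurora kinase inhibition. Malat1 fell to 0.765 of the VX680 level, by -0.39 ± 0.09 in log2 (edgeR, adjusted p = 0.0166), in a comparison in which 6.5% of genes were called and 4.05% were called lower. This call was lost without any 1 of the 4 libraries compared: the adjusted p was 0.126 and 0.179 without 5azadC+VX680 replicates 1 and 2, and 0.122 and 0.193 without VX680 replicates 1 and 2. Neat1 differed by -0.22 ± 0.15 (adjusted p = 0.464), by -0.32 without 5azadC+VX680 replicate 1 and by -0.13 without 5azadC+VX680 replicate 2, neither of which passed, and by -0.21 (adjusted p = 0.0214) when only these groups were fitted, with the spread then estimated from 4 libraries.

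On the log2 scale the changes of Malat1 by the single drugs added up to -1.40, while the combination changed it by -0.89. The interaction was 0.51 ± 0.12 (edgeR, adjusted p = 0.0117), where 15.6% of genes had a called interaction and 4.95% a positive one. This call was lost without VX680 replicate 1 (adjusted p = 0.0983), without 5azadC+VX680 replicate 1 (0.0702) and without 5azadC+VX680 replicate 2 (0.0501). For Neat1 the single-drug changes added up to 0.073, against 0.62 with both drugs. Its interaction of 0.54 ± 0.22 was close to that of Malat1 in size but had the wider error and did not pass (adjusted p = 0.108). It passed without untreated replicate 1 (0.81), without 5azadC replicate 1 and without the filter on low counts (0.52 ± 0.13, edgeR adjusted p = 0.000845). The last of these had a similar value and a smaller SE. With DESeq2 the Neat1 interaction was 0.56 ± 0.34 and did not pass (Wald test, adjusted p = 0.327). Its lowest value without a single library was 0.26.

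**Figure D2:**
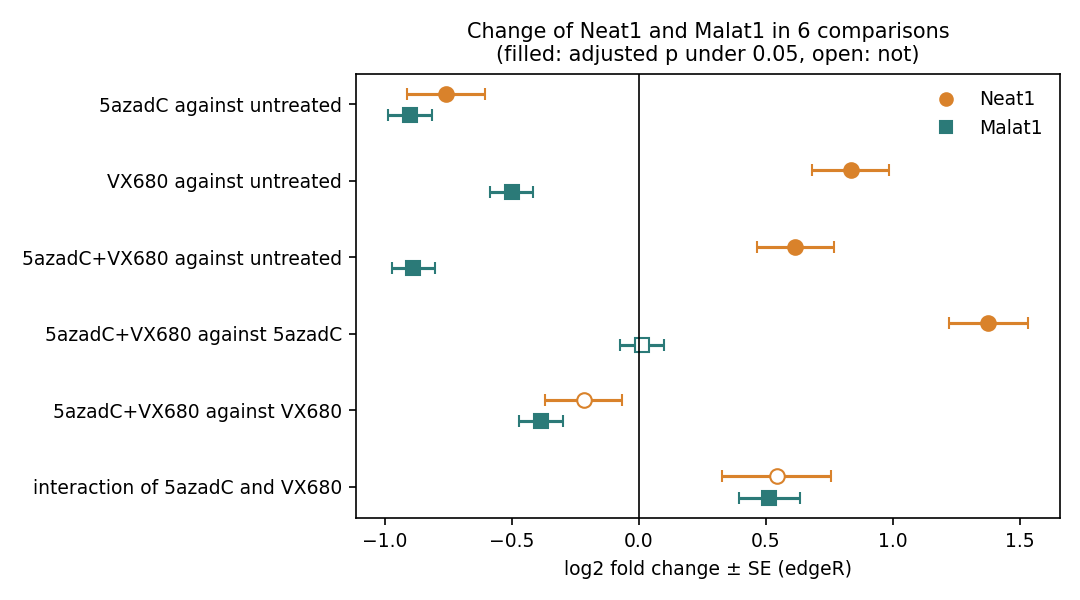
Log2 changes (x axis) of Neat1 and Malat1 in the 6 comparisons of total expression (rows), with SE bars from the fit over 8 libraries. Filled points passed an adjusted p of 0.05; the RNAs move together with 5azadC (-0.76 and -0.90) and apart with VX680 (0.83 and -0.50).

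The balance of the RNAs within a library does not depend on how libraries are scaled. There were 10.6 and 14.4 Malat1 reads per Neat1 read in the 5azadC libraries, 5.25 and 5.45 in the VX680 libraries, 4.53 and 5.02 in the 5azadC+VX680 libraries, and 15.9 and 11.8 in the untreated libraries. The 5azadC libraries overlapped the untreated ones, and the 4 libraries given VX680 lay below both groups. Group means were 12.5 ± 2.74, 5.35 ± 0.143, 4.78 ± 0.342 and 13.8 ± 2.87 reads in the same order (SD, n = 2 each). Per kilobase of listed length, Malat1 had 37.2 ± 8.14 times the reads of Neat1 with 5azadC and 15.9 ± 0.425 times with VX680. With both drugs it had 14.2 ± 1.02 times, and in untreated cells 41.2 ± 8.55 times. The listed length of Neat1 is close to that of its long form, while reads of the short form are counted under the same gene. The ratio per kilobase therefore depends on the mix of forms, which was not measured. Both ratios are given as a description, with no test.

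**Figure D3:**
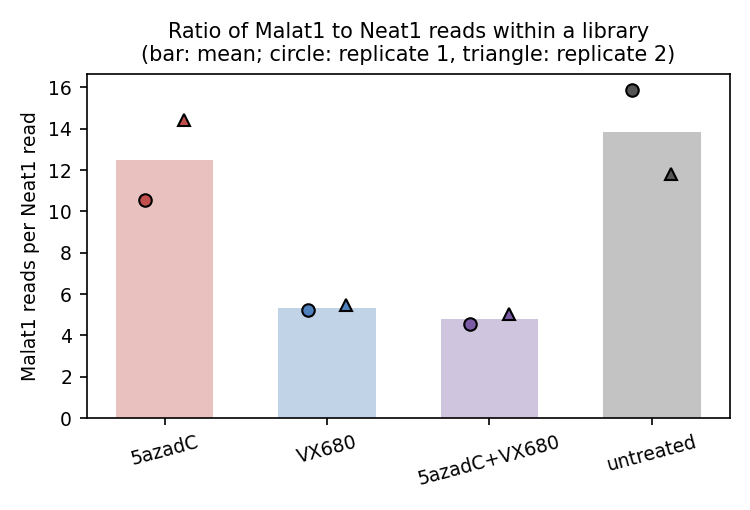
Malat1 reads per Neat1 read in each library (y axis, from 0) for the 4 groups (x axis), with the 2 libraries of a group as points. The 4 libraries given VX680 lie between 4.53 and 5.45, and the 5azadC and untreated libraries between 10.6 and 15.9.

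Reads that carry a sequence variant show whether the mus and cas copies of each gene moved alike. Between 7686 and 21662 Malat1 reads per library were assigned to an allele, which is 23.5 to 25.2% of its reads, and between 876 and 4370 Neat1 reads, which is 38.7 to 41.6%. The mus share of Malat1 was 47.5 and 47.5% with 5azadC, 46.3 and 46.1% with VX680, 44.9 and 44.6% with both drugs, and 50.2 and 50.9% in untreated cells. No treated library reached the untreated ones, and the groups followed each other without overlap in the order untreated, 5azadC, VX680 and 5azadC+VX680 from high to low. The mus share of Neat1 was 49.8 and 51.9% with 5azadC, 46.5 and 49.3% with VX680, 43.7 and 48.1% with both drugs, and 53.6 and 52.4% in untreated cells. Every treated library was again below the untreated ones, but VX680 overlapped with 5azadC+VX680. The gap to 5azadC was within counting error for the nearest libraries, with exact 95% intervals of 48.6 to 55.3% for 5azadC replicate 2 and 50.2 to 54.7% for untreated replicate 2. For replicate 1 the intervals were 47.1 to 52.4% with 5azadC and 51.5 to 55.8% in untreated cells. These overlapped, but each left out the share of the other library. How many other genes have groups apart in these ways was not counted. Exact (Clopper-Pearson) 95% intervals of these shares cover counting error only, and were 43.8 to 46.0% for 5azadC+VX680 replicate 1 and 49.6 to 50.9% for untreated replicate 1 in Malat1.

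The change of the mus to cas ratio was tested in the 10301 genes with enough allelic reads. For Malat1 the log2 ratio changed by -0.34 ± 0.06 with both drugs (edgeR, adjusted p = 0.000578) and by -0.25 ± 0.06 with VX680 (adjusted p = 0.0311) relative to untreated cells, and its change with 5azadC of -0.18 ± 0.06 did not pass (adjusted p = 0.396). Such calls were rare: 0.515% of genes were called with both drugs (0.33% lower), 0.379% with VX680 (0.184% lower) and 0.282% with 5azadC. The call with both drugs held without each single library. That with VX680 was lost without any 1 of the 4 libraries compared, with adjusted p of 0.353 and 0.519 without VX680 replicates 1 and 2 and of 0.134 and 0.39 without untreated replicates 1 and 2. For Neat1 the log2 ratio changed by -0.41 ± 0.11 with both drugs (adjusted p = 0.0907), by -0.30 ± 0.11 with VX680 (adjusted p = 0.525) and by -0.13 ± 0.12 with 5azadC (adjusted p = 0.916), none of which passed. The change with 5azadC was -0.06 without 5azadC replicate 1. Without 5azadC+VX680 replicate 2 the change with both drugs was -0.54 (adjusted p = 0.043). For neither RNA was the ratio with both drugs called against either single drug, with adjusted p of at least 0.663 in those tests, where 0.136% of genes were called against 5azadC and 0.126% against VX680. Neither RNA had a called interaction in its ratio, and 0.0485% of genes had one.

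**Figure D4:**
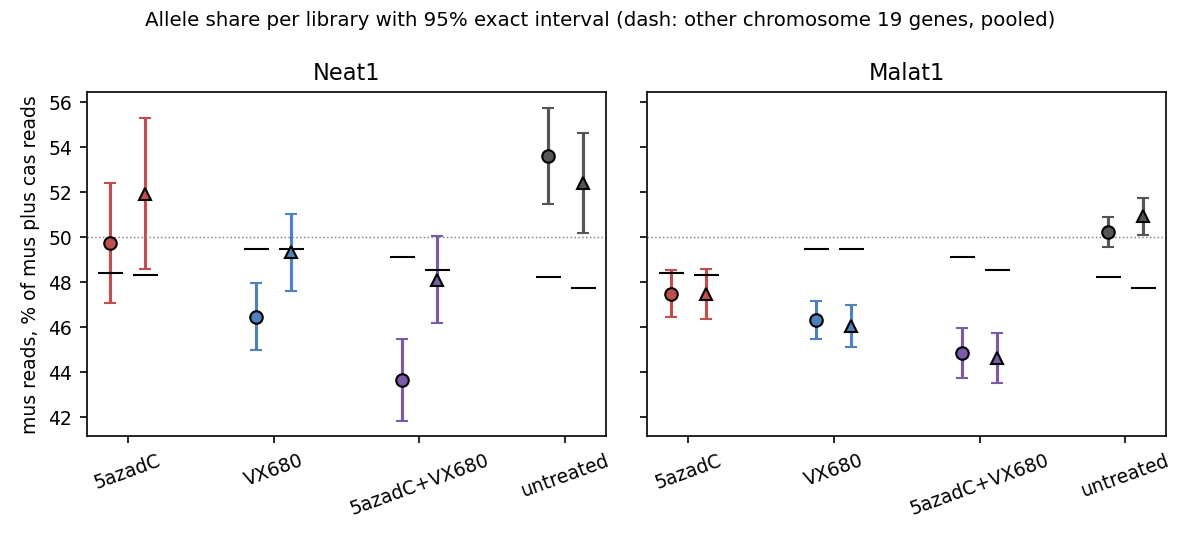
Share of mus reads among allelic reads (y axis, percent) of Neat1 and Malat1 in each library, by group (x axis), with exact 95% intervals for counting error. Malat1 lies at 50.2 and 50.9% in the untreated libraries and at 44.9 and 44.6% with both drugs.

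Both alleles of Malat1 were lower in every treated group. Its mus allele had 486 ± 23.4 allelic CPM with 5azadC, 649 ± 26.4 with VX680, 482 ± 13.3 with both drugs and 1012.5 ± 38 in untreated cells. Its cas allele had 538 ± 26, 756 ± 36.5 and 595 ± 12.6 allelic CPM in those treated groups, against 989 ± 17.4 in untreated cells (SD, n = 2 each). The authors' deposited tables, which test each allele by itself, list log2 changes of -1.0 (mus) and -0.80 (cas) with 5azadC for Malat1. For VX680 the authors' deposited tables give -0.53 (mus, false discovery rate 0.0019) and -0.25 (cas, false discovery rate 0.077). With both drugs the authors' deposited tables give -0.98 (mus) and -0.59 (cas). For Neat1 the authors' deposited tables list -0.82 (mus) and -0.68 (cas) with 5azadC, 0.80 (mus) and 1.11 (cas) with VX680, and 0.49 (mus) and 0.96 (cas) with both drugs, all with a false discovery rate of at most 0.018.

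Within a group, the mus allele of Malat1 gave fewer reads than the cas allele in the fit, by -0.15 ± 0.04 in log2 with 5azadC (adjusted p = 0.00465), -0.22 ± 0.04 with VX680 (adjusted p = 2.77e-05) and -0.30 ± 0.04 with both drugs (adjusted p = 6.89e-08), while it stood at 0.03 ± 0.04 in untreated cells (adjusted p = 0.588). The call in 5azadC cells was lost without 5azadC replicate 1 (adjusted p = 0.0666) and without 5azadC replicate 2 (adjusted p = 0.0656). In these tests 38.2% of genes were called with 5azadC, 38.4% with VX680, 37.9% with both drugs and 38.2% in untreated cells, and the median log2 ratio of all genes was -0.21 with 5azadC, -0.20 with VX680, -0.21 with both drugs and -0.20 in untreated cells. With each allele column scaled to its own total, the ratio of Malat1 was 0.01, -0.03, -0.14 and 0.23 in the same order, so that its sign turned in 5azadC cells. The calls in 5azadC and VX680 cells were then lost (adjusted p = 0.855 and 0.728), that with both drugs held (adjusted p = 0.0206), and untreated cells had a call with the mus allele higher (adjusted p = 0.000159). Neat1 passed only with both drugs (-0.24 ± 0.08, adjusted p = 0.0128), a call lost without 5azadC+VX680 replicate 1 (-0.11, adjusted p = 0.534) and with own totals (-0.08, adjusted p = 0.533). With own totals Neat1 was instead called in untreated cells, with the mus allele higher (0.37, adjusted p = 4e-04). The 380 other chromosome 19 genes and 10021 autosomal genes, pooled, had mus shares of 47.8 to 49.5% and 46.9 to 48.8% per library.

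Paraspeckle proteins, the partners of Neat1, were called in either direction in shares near those of all genes in both groups given VX680. With 5azadC their share was below that of all genes. The shares were 29.6, 48.1 and 55.6% with 5azadC, VX680 and both drugs, against 42.2, 46.1 and 55.7% of all tested genes. Among these few genes, more were called lower than higher in each group. With 5azadC, 3 of 27 rose and 5 fell (median log2 change -0.13); with VX680, 4 rose and 9 fell (-0.19); with both drugs, 5 rose and 10 fell (-0.22). The members that fell made up 18.5, 33.3 and 37% of the list in the same order, against 19.6, 22.4 and 27.3% of all tested genes, and those that rose 11.1, 14.8 and 18.5%, against 22.6, 23.8 and 28.4%. The medians over all tested genes were 0.0016, 0.0089 and 0.013. Without single libraries the counts with VX680 moved to 2 rising (without untreated replicate 2) and 5 falling (without VX680 replicate 1), and those with both drugs to 3 rising (without untreated replicate 1 or 5azadC+VX680 replicate 2). Among the proteins on which paraspeckles depend, the splicing factor and DNA-binding protein Sfpq had 892 ± 134 CPM with 5azadC, 784 ± 65.8 with VX680, 794 ± 113 with both drugs and 926 ± 219 in untreated cells (SD, n = 2 each), and passed in none of these comparisons. Its partner Nono fell by -0.30 ± 0.10 with VX680 (adjusted p = 0.0265) and by -0.27 ± 0.10 with both drugs (adjusted p = 0.0369). Their relative Pspc1 had -0.19 ± 0.10 with both drugs and did not pass (adjusted p = 0.115). The members with the smallest p with both drugs were Fign, which encodes a microtubule-severing enzyme (-2.49 ± 0.21), the AT-hook protein gene Ahdc1 (-0.998 ± 0.12), and the RNA-binding protein genes Rbmx (-0.91 ± 0.12) and Hnrnpr (-0.65 ± 0.11), with adjusted p between 4.15e-07 for Fign and 0.000226 for Hnrnpr.

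Nuclear speckle and SR proteins, with which Malat1 is found, were mostly not called. Of 25 genes, 3 rose and 1 fell with 5azadC, 2 rose and 4 fell with VX680, and 4 rose and 3 fell with both drugs, with medians of -0.02, -0.022 and 0.0035. Called in either direction were 16, 24 and 28% of the list, against 42.2, 46.1 and 55.7% of all tested genes. These small counts moved without single libraries: with 5azadC, 4 fell without 5azadC replicate 1 and 2 fell without 5azadC replicate 2 or either untreated replicate. With VX680, 1 fell without either VX680 replicate, 2 fell without untreated replicate 1 or either 5azadC+VX680 replicate, 6 fell without either 5azadC replicate, and 1 rose without untreated replicate 1 or VX680 replicate 1. With both drugs, 2 rose and 1 fell without untreated replicate 1 or 5azadC+VX680 replicate 1, and 6 fell without either 5azadC replicate. Srsf2, an SR splicing factor, rose by 0.42 ± 0.09 with 5azadC, 0.35 ± 0.09 with VX680 and 0.49 ± 0.09 with both drugs (adjusted p between 0.000434 and 0.00679). Srsf1, another SR factor, rose with 5azadC (0.28 ± 0.09, adjusted p = 0.0255) and with both drugs (0.26 ± 0.09, adjusted p = 0.0237) and had 0.13 ± 0.09 with VX680 (adjusted p = 0.263). U2af2, which recognises the end of introns, rose by 0.52 ± 0.09 with both drugs (adjusted p = 0.000331). Srrm2, a scaffold of speckles, fell by -0.58 ± 0.11 (adjusted p = 0.000517), and the SR protein kinase gene Clk1 fell by -0.46 ± 0.14 (adjusted p = 0.0127). Son, the other speckle scaffold, had -0.21 ± 0.09 with both drugs (adjusted p = 0.076).

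Genes of 3′ end processing and stability rose in a share close to that of all genes with either single drug and in a larger share with both drugs. Of 22 genes, 5 rose and 1 fell with 5azadC, 6 rose and 1 fell with VX680, and 10 rose and 2 fell with both drugs, with medians of 0.22, 0.29 and 0.36. The members that rose made up 22.7, 27.3 and 45.5% of the list, against 22.6, 23.8 and 28.4% of all tested genes, and those that fell 4.55, 4.55 and 9.09%, against 19.6, 22.4 and 27.3%. The count that rose with 5azadC was 3 without untreated replicate 1 or 2, and that with both drugs was 5 without 5azadC+VX680 replicate 2, where 2911 of 13082 genes were called higher, so that the larger share was lost. With both drugs, 1 fell without untreated replicate 1 or either 5azadC+VX680 replicate, with 5azadC none fell without untreated replicate 1, and with VX680, 3 fell without 5azadC replicate 1 or 2. Elac2 encodes RNase Z, which trims the tRNA-like RNA cut from Malat1. It had 34.3 ± 2.03 CPM with 5azadC, 35.2 ± 1.38 CPM with VX680, 34.5 ± 2.13 CPM with both drugs and 15.96 ± 2.05 CPM in untreated cells (SD, n = 2 each). The treated groups overlapped with each other and lay above the untreated one, with log2 changes of 1.09 ± 0.15, 1.13 ± 0.15 and 1.10 ± 0.15 (adjusted p of at most 5.45e-05). The RNase P and MRP subunit genes Pop1 (0.85 ± 0.13), Pop4 (0.64 ± 0.16) and Rpp38 (1.33 ± 0.29) rose with both drugs (adjusted p between 7.41e-05 and 0.00394). Cpsf6 and Nudt21 encode the cleavage factor that favours the short form of Neat1. Cpsf6 fell by -0.34 ± 0.09 with both drugs (adjusted p = 0.00743), and Nudt21 had 0.40 ± 0.25 (adjusted p = 0.19).

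The next list joins factors known to raise Neat1, such as p53, with p53 targets, which make up most of it. Its members were mostly higher in all treated groups, and the counts do not separate the factors from the targets. Neat1 itself fell with 5azadC (-0.76 ± 0.15) and rose with VX680 (0.83 ± 0.15) and with both drugs (0.62 ± 0.15). Neat1 is a target of p53 in mouse and human cells. Of 20 tested genes, 16 rose and 1 fell with 5azadC, 16 rose and none fell with VX680, and 17 rose and 1 fell with both drugs, with medians of 1.3, 1.3 and 1.5. The shares that rose were 80, 80 and 85%, against 22.6, 23.8 and 28.4% of all tested genes. The effects of the drugs on p53 targets were known when this list was made, so its direction is not independent evidence. With VX680, 1 fell without 5azadC replicate 1 or 2. Trp53, the gene of p53, rose by 0.57 ± 0.12 with 5azadC, 0.46 ± 0.12 with VX680 and 0.73 ± 0.12 with both drugs (adjusted p between 0.000134 and 0.00555). Cdkn1a, the cell cycle inhibitor p21, had 274 and 293 CPM with 5azadC, 356 and 341 CPM with VX680, and 399.7 and 407 CPM with both drugs, against 39.99 and 42.5 CPM in untreated cells. Mdm2, whose product turns p53 over, rose by 1.32 ± 0.09 with 5azadC, 1.68 ± 0.09 with VX680 and 2.24 ± 0.09 with both drugs. Ccng1 (cyclin G1) rose by 3.20 ± 0.12 and the p53 target Phlda3 by 2.22 ± 0.10 with both drugs.

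Other long noncoding RNAs went both ways. Of 30 tested, 2 rose and 9 fell with 5azadC, 7 rose and 9 fell with VX680, and 8 rose and 10 fell with both drugs, with medians of -0.013, -0.27 and -0.15. These are shares of 6.67, 23.3 and 26.7% higher, against 22.6, 23.8 and 28.4% of all tested genes, and of 30, 30 and 33.3% lower, against 19.6, 22.4 and 27.3%. Without untreated replicate 1, 4 fell with 5azadC, and without untreated replicate 2, 5 rose; 4 rose without 5azadC replicate 1 and 1 without 5azadC replicate 2. The count that rose with both drugs was 4 without 5azadC+VX680 replicate 1 or 2 and 5 without untreated replicate 2, and 6 fell without untreated replicate 1. With VX680, 4 rose without VX680 replicate 2. Xist, the RNA that coats the inactive X chromosome, had 405 and 426 CPM with 5azadC, 357 and 378 CPM with VX680, and 426 and 429 CPM with both drugs, against 781 and 785.5 CPM in untreated cells, so all treated libraries lay below the untreated ones. With both drugs Dnm3os, a host RNA of microRNAs, fell by -2.30 ± 0.13, Terc, the RNA of telomerase, rose by 1.83 ± 0.20, and Pvt1, the RNA next to Myc, rose by 1.5 ± 0.19 (adjusted p of at most 1.66e-05). Dnm3os lies antisense to a coding gene, and strand use in counting is not given in the sources used here. Among the other 416 tested genes listed as ncRNA, 32 rose and 73 fell with 5azadC, 48 rose and 71 fell with VX680, and 73 rose and 84 fell with both drugs. That is 7.69, 11.5 and 17.5% higher and 17.5, 17.1 and 20.2% lower, below the shares of all tested genes in each case. Their medians were -0.27, -0.15 and -0.092.

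Genes beside the Malat1 and Neat1 pair, taken as the 5 listed genes on each side in the order of the GENCODE annotation, went both ways. Of these 10 genes, 3 rose and 3 fell with 5azadC, 3 rose and 4 fell with VX680, and 4 rose and 4 fell with both drugs. The shares called in either direction were 60, 70 and 80% of these few genes, against 42.2, 46.1 and 55.7% of all tested genes. On the Malat1 side Ltbp3, which encodes a protein that binds latent TGF-beta, fell by -0.47 ± 0.10 with 5azadC, -1.22 ± 0.10 with VX680 and -1.37 ± 0.10 with both drugs. Ehbp1l1, an adaptor of membrane traffic, rose by 0.57 ± 0.09, 0.51 ± 0.09 and 0.42 ± 0.09 in the same order. On the Neat1 side Frmd8, which encodes a partner of the iRhom proteins, had 0.22 ± 0.09 with 5azadC (adjusted p = 0.0624) and rose by 0.31 ± 0.09 with VX680 (adjusted p = 0.0112) and 0.34 ± 0.09 with both drugs (adjusted p = 0.00536). Dpf2, a subunit gene of BAF chromatin remodellers, fell by -0.32 ± 0.11 with VX680 and -0.39 ± 0.11 with both drugs (adjusted p = 0.0284 and 0.0101).

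In the annotation Fam89b and Sssca1 overlap on the same strand, so counting could split reads between them. The remaining neighbours included low counts. Sssca1 rose by 0.64 ± 0.14 with VX680 and 0.84 ± 0.14 with both drugs, and Fam89b fell by -0.36 ± 0.11 with 5azadC, -0.32 ± 0.11 with VX680 and -0.58 ± 0.11 with both drugs. Cdc42ep2, an effector of Cdc42, rose with 5azadC only by call (1.15 ± 0.26, adjusted p = 0.00293), with 0.37 ± 0.27 for VX680 and -0.20 ± 0.29 for both drugs. Slc25a45 (128 reads in all) rose by 1.91 ± 0.59 with 5azadC and 2.28 ± 0.58 with both drugs. Tigd3 (210 reads in all) fell in all treated groups, by -1.43 ± 0.41 with 5azadC, -1.0 ± 0.39 with VX680 and -1.16 ± 0.40 with both drugs. The number of falling neighbours was 1 without untreated replicate 1 with 5azadC, and 1 with VX680 without untreated replicate 1 or either VX680 replicate (2 without 5azadC+VX680 replicate 1). With both drugs it was 2 without untreated replicate 1 or either 5azadC+VX680 replicate. The mus share of Frmd8 ran from 22.9 to 31.8% over the 8 libraries. Of the neighbours, 8 had enough allelic reads for a test (not Slc25a45 and Tigd3). None of their 48 tests of a change of the mus to cas ratio was called by edgeR, with 2 at an unadjusted p under 0.05 and an adjusted p of at least 0.665. Over all 10301 genes, 0.0485 to 0.515% were called in these comparisons. The absence of calls among 8 genes is therefore close to the share of all genes and does not show that their ratios stayed the same.

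**Figure D5:**
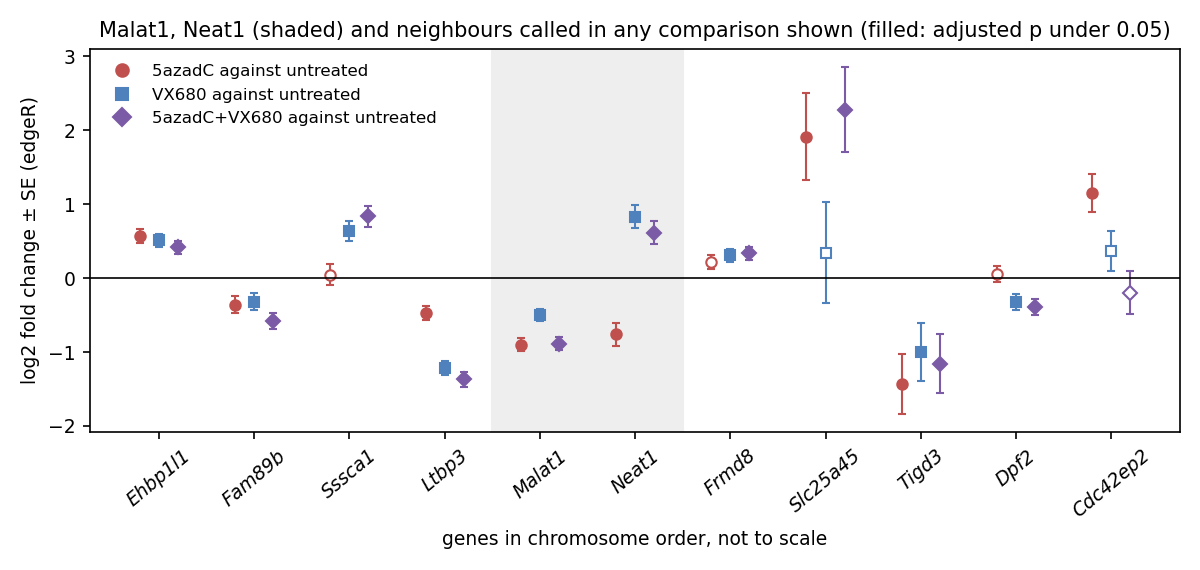
Log2 changes (y axis) of Malat1, Neat1 (shaded) and the neighbours called in at least 1 of the comparisons shown, in chromosome order and not to scale (x axis), for the 3 comparisons with untreated cells, with SE bars. Filled points passed an adjusted p of 0.05; Ltbp3 fell by -1.37 and Frmd8 rose by 0.34 with both drugs, beside Malat1 at -0.89 and Neat1 at 0.62.

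Genes whose profile lay closest to each RNA were found by the root mean square difference of log2 CPM, centred over the 8 libraries, among 6192 candidate genes (log2 CPM of 5 or more on average). For Malat1 the closest were Ttbk2, a kinase of cilium assembly (0.0802), Bach1, a heme-sensing repressor (0.0827), Chd3, a NuRD remodeller (0.0871), Smarcal1, an annealing helicase of stalled forks (0.0951), and the kinesin Kif13b (0.0967), where the median candidate lay at 0.423. The choice by profile over these libraries also sets the direction of their changes, which are given as a description. With both drugs the log2 changes of these 5 genes were -0.91 ± 0.12 (Ttbk2), -0.72 ± 0.09 (Bach1), -0.98 ± 0.11 (Chd3), -0.94 ± 0.12 (Smarcal1) and -0.86 ± 0.12 (Kif13b). For Neat1 the closest lay further away, among them Cflar, an inhibitor of caspase-8 activation (0.299), the helicase Pif1 (0.337), the ubiquitin ligase Dtx4 (0.339) and sorbitol dehydrogenase Sord (0.352), against a median of 0.697. Cflar had log2 changes of -0.50 ± 0.11 with 5azadC, 0.44 ± 0.10 with VX680 and 0.55 ± 0.10 with both drugs, and Pif1 of 0.01 ± 0.14, 0.85 ± 0.13 and 0.86 ± 0.13. Dtx4 had -0.82 ± 0.15, 0.26 ± 0.14 and -0.02 ± 0.14, and Sord -1.03 ± 0.15, 0.27 ± 0.14 and 0.04 ± 0.14, so that both were low with 5azadC and near the untreated level with both drugs. Neat1 and Malat1 lay 0.705 apart by this measure.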

How the data were processed

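Directional total RNA libraries were compared, 2 for each of 4 groups taken from the sample labels. Whether poly(A) selection or depletion of ribosomal RNA was used is not given in the sources used here. The build was mm9 and the tools TopHat2 2.0.10, HOMER 4.8 and edgeR, per the submitters' processing notes. The authors deposited raw counts per gene and raw counts per allele, both whole numbers. The composite table's other quantity, gene length in bases, is per the file headers. The authors' deposited normalized signal equals the counts times 1 factor per library. Per the file headers, the authors' allelic tables hold log2 fold changes with p-values and false discovery rates of their own test.

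Total expression was tested with edgeR 4.0.16 (R 4.3.3; filterByExpr, TMM, quasi-likelihood, all 8 libraries, Benjamini-Hochberg adjusted p under 0.05 over 12643 genes) in 6 comparisons. Allelic ratios were fitted with library terms and a mus term for each group over 10301 genes that averaged 10 or more allelic reads. Levels are CPM scaled by TMM library sizes. Columns named control were matched to the untreated libraries, titled WT. Tested on simulated data with 200 genes changed 2-fold for 5azadC against untreated, the fits recovered 74.2% (9 false calls, 12404 genes run) for expression and 17.2% (2 false calls, 10214 genes run) for the allele ratio. The real comparison called 5332 genes for expression, far more than were changed in the simulation, so that recovery rate may not carry over to these data.

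Members, lists and alternatives were chosen with earlier results of these data known. Of each of 6 lists, the named genes are up to 4 called members with the smallest p with both drugs, fixed members such as Sfpq and Cdkn1a, all called neighbours, and the 5 nearest profiles. Of 23 end-processing names 22 matched (Mtr4 is another name of Skiv2l2), Perp was not tested, and of 36 noncoding RNAs 33 matched (not Zfas1, Norad and Oip5os1) and Meg3, Rian and Mirg were not tested. Some genes this rule names are not reported here. Promoter sequences were not analysed here. Sequences are from GENCODE vM21 (GRCm38), used for transcripts and gene order only, since the deposited tables follow mm9. Alternatives covered scaling, filters, DESeq2 1.42.0, limma 3.58.1, the libraries fitted, a replicate block and single libraries left out. Those that left out a library for the list counts and for numbers of allelic calls were added after the data were seen.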

Additional observations from a re-analysis of the deposited data

Results flagged for a closer look

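For Malat1 the effect of VX680 differed with and without 5azadC: the interaction was 0.51 on the log2 scale (0.5134, edgeR adjusted p = 0.0117), a call lost without VX680 replicate 1 or either 5azadC+VX680 replicate (adjusted p of 0.0501 to 0.0983). With VX680, Malat1 stood at 4453 and 4314 CPM in 5azadC+VX680 cells against 4214 and 4478 CPM in 5azadC cells, and at 5573 and 5887 CPM in VX680 cells against 7782 and 8436 CPM in untreated cells.

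The mus to cas ratio of Malat1 was called as changed with VX680 and with both drugs. The log2 mus to cas ratio changed by -0.253 with VX680 (adjusted p = 0.0311) and by -0.338 with both drugs (adjusted p = 0.000578), each against untreated cells, and every treated library of these groups had a lower mus share than either untreated library. The call with VX680 was lost without any 1 of the 4 libraries compared (adjusted p of 0.134 to 0.519) and with each allele column scaled to its own total (adjusted p = 0.116), while that with both drugs held in each of these settings. The part of allele assignment in these shares was not tested.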

How the results depend on the processing

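Against untreated cells, both RNAs kept their direction in all 3 comparisons under every alternative run, and the one lost call was that of Neat1 with both drugs without untreated replicate 1. Scaled by total counts, the median log2 change of all genes was 0.11 with VX680, 0.12 with both drugs and 0.10 for both drugs against 5azadC, against 0.0089, 0.013 and -0.0041; the split of higher to lower calls with VX680 was then 3590 to 2222, against 3005 to 2829, with both drugs 4111 to 2879, against 3586 to 3454, and for both drugs against 5azadC 1944 to 1347, against 1262 to 1877. The signal deposited by the authors gave 3646 to 2144, 4146 to 2883 and 1904 to 1330. Relative to those medians the directions of Neat1 and Malat1 against untreated cells were kept. Without the filter on low counts, Malat1 with both drugs against 5azadC was -0.004156, the interaction of Neat1 was 0.518 and 1299 genes were called for both drugs against VX680; fitted on those groups alone, Neat1 was -0.2146 there and 2014 genes were called, against 822. With each allele column scaled to its own total, the log2 mus to cas ratios were 0.01455 (Malat1, 5azadC), 0.07087 (Neat1, VX680), -0.02631 (Malat1, VX680), -0.07541 (Neat1, both drugs), 0.3696 (Neat1, untreated) and 0.2278 (Malat1, untreated), and the change of Malat1 with VX680 was -0.2541 (adjusted p = 0.116). Among genes averaging 50 or more allelic reads, 6 and 3 genes had a called ratio change for both drugs against VX680 and for the interaction, against 13 and 5. The causes were not tested.

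Without single libraries, the log2 change of Neat1 ran from 0.3525 to 0.9008 with both drugs against untreated, its interaction from 0.2613 to 0.8105, that of Malat1 from 0.467 to 0.5906, and Malat1 with both drugs from -0.03766 to 0.06182 against 5azadC and from -0.4273 to -0.3486 against VX680. The mus to cas ratio ran from -0.01448 to 0.112 (Neat1, 5azadC), -0.1453 to -0.145 (Malat1, 5azadC, not called without either 5azadC library) and -0.3675 to -0.1092 (Neat1, both drugs). Its change ran from -0.2732 to -0.2325 (Malat1, VX680), from -0.5423 to -0.2841 (Neat1, both drugs), from -0.245 to 0.01325 (Neat1, both drugs against VX680) and from -0.1163 to 0.142 (Neat1, interaction). Numbers of called genes ran from 3936 to 5490 (5azadC), 4120 to 6665 (VX680), 5693 to 7771 (both drugs), 1629 to 3179 (both against 5azadC), 114 to 1566 (both against VX680) and 948 to 2721 (interaction). For the ratio change they ran from 18 to 36, 17 to 46, 23 to 63, 11 to 18, 7 to 20 and 4 to 9 in the same order, and for mus against cas from 2803 to 3975 (5azadC), 2699 to 4007 (VX680), 2855 to 3957 (both drugs) and 2701 to 4001 (untreated).

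No pairing by replicate number was seen: replicate differences of any 2 groups correlated at -0.0622 to 0.0326 over the tested genes. These correlations weigh all genes alike, with the counting noise of low ones, so they cannot tell whether replicates shared a preparation. With the replicate block, Neat1 was 0.62 and Malat1 -0.89 with both drugs against untreated, and no call of either RNA changed. Neat1 had fewer allelic reads than Malat1 in every library, with the fewest, 876, in 5azadC replicate 2. The part of depth in its uncalled allele tests was not tested.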

Other observations

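The allele share of Neat1 spread more between replicates than that of Malat1. The 5azadC+VX680 libraries had mus shares of 43.7% (exact 95% interval 41.9 to 45.5%, 2897 allelic reads) and 48.1% (46.2 to 50.1%, 2590 allelic reads) for Neat1, intervals that do not overlap. For Malat1 the same libraries had 44.9% (43.8 to 46.0%) and 44.6% (43.5 to 45.8%).

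The untreated libraries differed for Neat1 and not to the same extent for Malat1 (1.46-fold and 1.08-fold), and Sfpq moved with Neat1 in them, at 771 CPM in replicate 1 and 1081 CPM in replicate 2, beside Neat1 at 490.1 and 714 CPM.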
